A study of Mus musculus with 4 samples.

Results

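Type I interferon-stimulated genes are the transcripts that cells switch on when interferon-α or interferon-β binds its receptor. A list of 42 mouse genes of this kind, taken by symbol and matched by Entrez identifier, was followed in tumor-associated macrophages (TAMs), and all 42 were found among the 16739 genes with a value in any library. In this pathway the receptor chains Ifnar1 and Ifnar2 signal through the kinases Jak1 and Tyk2 to the factor ISGF3, of which Stat2 and Irf9 are parts. ISGF3 binds the interferon-stimulated response element near the start of its target genes, whose products block viral entry, translation and genome copying, sense foreign nucleic acids, or damp the signal again. Macrophages make type I interferon after sensing nucleic acids and also respond to it, and many of the same genes answer to interferon-γ.

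RNA was sequenced from CD45+ CD11b+ F4/80+ cells sorted by flow cytometry from B16-F10 melanomas, a transplanted tumor of the C57BL/6 strain, 16 days after the cells were placed under the abdominal skin of mice aged 6 to 8 weeks. The WT group held 2 libraries from wild type C57BL/6 mice, described by the study as littermate controls with no further statement of their floxed or Cre alleles. The other 2 libraries came from C57BL/6 mice labelled as deficient in Trim24 in myeloid cells, made by crossing floxed Trim24 (flox/flox) to LysM-Cre, a recombinase driven by the lysozyme M promoter of myeloid cells and not of macrophages alone. No cytokine or drug was given to either group, so the only contrast named by the labels was the genotype. The question put to the 42 genes was how their transcripts compared between the labels.

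The libraries held between 4476122 and 5172407 expected counts, at which 3 counts came to between 0.606 and 0.639 CPM (counts scaled by edgeR's TMM method to a common library size, the unit of every level below unless FPKM is named). The macrophage label was met by all 9 macrophage markers, none of which was below 489 CPM in any library. Trim24 itself stood at 5.86 and 2.08 CPM in WT and at 3.41 and 0.411 CPM in the other libraries, so the groups overlapped and the transcript did not part the labels. Reads from the floxed part of the gene could not be separated from the rest. For this reason the 2 libraries labelled Trim24-deficient are called mutant-labelled replicates 1 and 2. Xist was at 10.9 and 6.46 CPM in WT against 437 and 256 CPM, and the Y-linked Ddx3y at 73.7 and 102 CPM against 0.426 and 0.411 CPM. The sex-linked transcripts therefore followed the genotype label, with a male pattern in WT and a female pattern in the mutant-labelled libraries. Genotype, sex and whatever else moves with these transcripts cannot be told apart. None of the 42 genes lies on chromosome X, and they are spread over 15 chromosomes. Their positions do not part sex from genotype in their values.

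Many interferon-stimulated genes carry the response element close to their start, and the stretches below show it for the members whose values are set side by side later. The letters searched were GAAA, then any 2 bases, then GAAA, on both strands, with overlapping matches counted, in RefSeq promoter windows of GRCm38.p6 that run from 250 bases before to 50 bases after each transcript start. A window was given for 31 of the 42 members, and 15 of these held the letters (48.4%), as did 386 of 9100 tested genes with a window (4.24%). Of the 31, 17 had a window at the outer end of the annotated gene. For others, such as Oas1a and Ifit3, bases ahead of the transcript start can lie inside the annotated gene. The longer form GAAAC, any base, GAAAC was held by 6 of the 31 members (19.4%) and by 0.407% of the tested genes. In the stretches, capitals mark the match on the gene strand or, where they read TTTC, its reverse complement. Isg15, Ifit1 and Oas3 are shown as members with the element ahead of the start, and Ifit3 beside Ifit3b and Oas1a beside Oas1g as near-identical copies. Ifi205 is shown for the highest log2 fold change of the list (1.03), Rsad2 for a value close to 0 (-0.07), and Ifitm3 for matches that lie just after its start. They lie at chr4:156200850-156200921 (Isg15, minus strand), chr19:34640760-34640838 (Ifit1, plus), chr19:34583348-34583441 (Ifit3, plus), chr19:34607744-34607837 (Ifit3b, plus), chr5:120907526-120907570 (Oas1a, minus), chr5:120887614-120887656 (Oas1g, minus), chr5:120777700-120777759 (Oas3, minus), chr1:174031855-174031914 (Ifi205, minus), chr12:26456538-26456597 (Rsad2, minus) and chr7:141010715-141010744 (Ifitm3, minus).
Isg15: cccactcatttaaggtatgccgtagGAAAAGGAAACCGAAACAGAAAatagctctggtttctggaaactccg
Ifit1: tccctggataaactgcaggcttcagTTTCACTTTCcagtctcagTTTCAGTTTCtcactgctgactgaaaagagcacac
Ifit3: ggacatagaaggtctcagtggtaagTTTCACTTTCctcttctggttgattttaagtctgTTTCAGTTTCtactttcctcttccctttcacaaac
Ifit3b: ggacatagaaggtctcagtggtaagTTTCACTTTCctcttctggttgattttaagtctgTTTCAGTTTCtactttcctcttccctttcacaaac
Oas1a: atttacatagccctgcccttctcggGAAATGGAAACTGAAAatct
Oas1g: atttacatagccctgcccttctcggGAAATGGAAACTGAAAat
Oas3: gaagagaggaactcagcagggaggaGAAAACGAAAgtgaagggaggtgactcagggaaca
Ifi205: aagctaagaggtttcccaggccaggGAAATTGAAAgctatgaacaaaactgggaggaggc
Rsad2: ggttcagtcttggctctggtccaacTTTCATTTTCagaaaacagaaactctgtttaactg
Ifitm3: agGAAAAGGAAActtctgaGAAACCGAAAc

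The Ifit3 and Ifit3b stretches were identical over 94 of 94 bases, and those of Oas1a and Oas1g over 43 of 43. In Isg15 the matches overlapped in a run that began 78 bases before the start. A match is a description of these letters and not a binding site, and a window with no match says only that the letters were not in it. The 15 members with a match had a median log2 fold change, mutant-labelled over WT, of 0.38, the 16 with a window but no match 0.42, and the 11 members with no window 0.53.

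**Figure D1:**
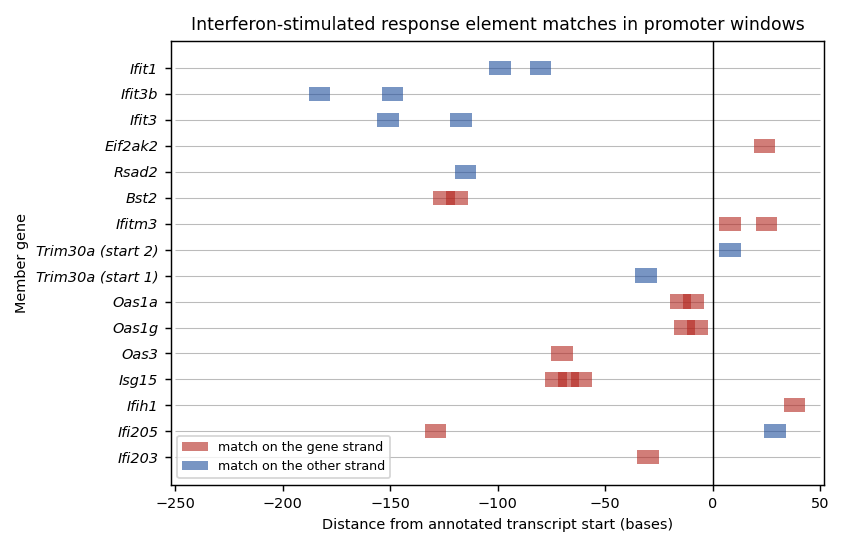
Position of each response element match (x axis, bases from the annotated transcript start, 0 at the start) in the RefSeq promoter windows of the 15 members that hold 1 or more (y axis, with 2 starts for Trim30a), with red boxes for the gene strand and blue boxes for the other strand. Most boxes lie ahead of the start, those within Isg15, Bst2, Oas1a and Oas1g overlap, and all those of Ifitm3, Eif2ak2 and Ifih1 lie after the start.

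Members were abundant transcripts in WT TAMs. On the FPKM scale, which is per gene length and so allows genes to be set side by side, the median of the WT means was 39.5 over the 42 members and 10.3 over the 11302 genes tested, and 40 of the 42 members were above the latter. The mean WT FPKM was above 100 for 10 members, from 10 to 100 for 30, and below 10 for Helz2 and Mx2. Ifi27l2a, the gene of a small membrane protein, led the order with 1529 and 1554 FPKM in WT and had 1188 and 1542 FPKM in the mutant-labelled libraries. Ifitm3, whose product blocks fusion of viruses in endosomes, was second in WT at 1305 and 1102 FPKM and first in the mutant-labelled libraries at 2152 and 1787 FPKM. The lowest WT mean was that of Helz2, a nuclear helicase that coactivates nuclear receptors, with 4.94 and 5.49 FPKM in WT and 7.70 and 3.96 FPKM in the mutant-labelled libraries. In the mutant-labelled libraries the median of the members' mean FPKM was 54.5, against 9.23 over all genes tested. Within the order of the 42 levels, Zbp1 stood at place 8 in WT and 5 in the mutant-labelled libraries and Ifi205 at 25 and 19, whereas Rsad2 stood at 17 and 21 and Oas2 at 30 and 35.

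**Figure D2:**
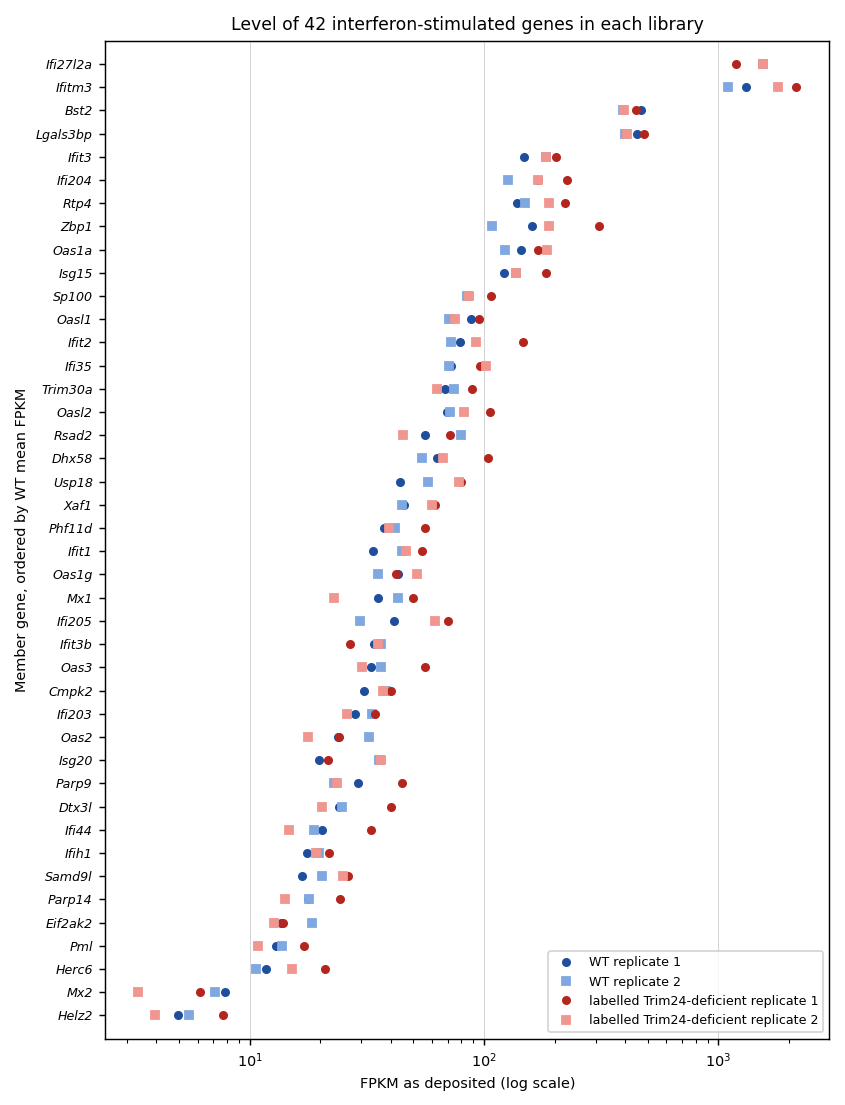
FPKM of each of the 42 members (x axis, log scale) in each library, with genes ordered on the y axis by their WT mean, blue symbols for the 2 WT libraries and red symbols for the 2 mutant-labelled libraries. The WT means run from 5.21 for Helz2 to 1540 for Ifi27l2a, and the dark red points of mutant-labelled replicate 1 often lie to the right of the other 3.

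Between the labels, most members had a higher mean in the mutant-labelled libraries, while no single member passed the test. All 42 members entered edgeR's quasi-likelihood test across 11302 genes. With calls made at a fold change above 1.5 and an adjusted p (Benjamini-Hochberg, FDR) below 0.05, 0 members were called higher, where 0.292% of all genes tested were, and 0 lower, where 0.0796% were. At an unadjusted p below 0.05 the same test gave 16 members higher and 0 lower, beside 6.58% and 5.62% of all genes. DESeq2 called 3 members higher (Ifitm3, Ifi205 and Zbp1), where it called 0.839% of its genes higher, and 0 lower (0.138%), and limma on log2(FPKM + 1) called 0. The log2 fold change was above 0 for 36 of the 42 members, against 49.4% of all genes tested, and its median was 0.41 over the members and -0.01 over all genes. On the scale of library totals without TMM the all-gene median moved to -0.15, and the members' median was then 0.26, which was 0.41 above it. The fitted values ran from -0.52 (Mx2) to 1.03 (Ifi205), and the fold was above 1.5 for 10 members. These calls changed with the library left out. In such fits the lone library of a group is assumed to vary like the pair of the other group. Without mutant-labelled replicate 2, edgeR called 14 members higher (3.74% of all genes), and without mutant-labelled replicate 1 it called Ifi205 and Usp18 (2 members, beside 2.18% of all genes). No member was called lower in either of these fits (1.8% and 1.27% of all genes).

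**Figure D3:**
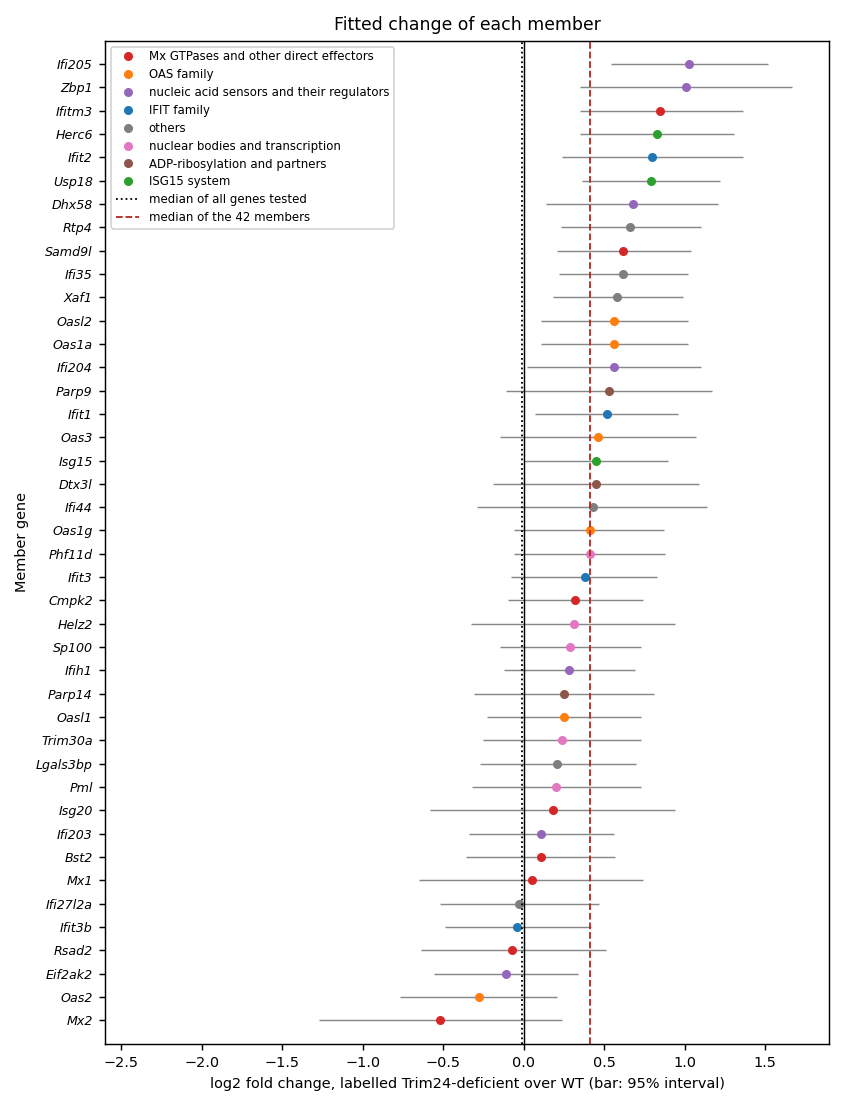
Fitted log2 fold change of each member, mutant-labelled over WT (x axis), with its 95% interval from edgeR (grey bar), ordered on the y axis and coloured by role. The points run from -0.52 for Mx2 to 1.03 for Ifi205, and the median of the 42 members (dashed, 0.41) lies to the right of that of all genes tested (dotted, -0.01).

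With 4 libraries, a count of members above both WT libraries was set beside the same count over all genes. Both mutant-labelled libraries were above both WT libraries for 22 members, against 21.4% of all genes, and both were below for 1 member, Mx2, against 23.0%. The remaining 19 overlapped. The same shares of all genes, 21.4% and 23.0%, stand beside the counts of each role group below. The number of members above both WT libraries in both mutant-labelled libraries moved with the scale. It was 16 on library totals without TMM (12.3% of all genes) and 17 on FPKM (12.3%). On FPKM, Oas1g, Isg15, Cmpk2, Ifih1 and Phf11d overlapped, so their lack of overlap below holds for TMM-scaled CPM. Summed over the 42 members, the level was 7810 and 7360 CPM in WT, against 11200 and 9150 CPM in mutant-labelled replicates 1 and 2. Both mutant-labelled sums were thus above both WT sums, and replicate 1 was the highest. The sums over all genes tested were 970000 and 930000 CPM in WT, against 1040000 and 1060000 CPM. As a share of unscaled expected counts, the members made up 0.8% and 0.79% in WT, against 1.07% and 0.86%. In a mixture of sorted cells, fewer cells of a type and less RNA per cell cannot be told apart, and this holds for every level given here.

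The IFIT proteins bind the ends of RNAs that lack the marks of the cell's own messages. Ifit2, at chr19:34550550-34576534, had the highest log2 fold change of the family, with 308 and 269 CPM in WT and 613 and 392 CPM in the mutant-labelled libraries. Its groups did not overlap, and its log2 fold change was 0.80 (SE 0.25, 95% interval 0.24 to 1.36, edgeR adjusted p = 0.232). Ifit3b had the lowest log2 fold change of the family, with 67.0 and 68.3 CPM in WT and 56.7 and 75.4 CPM in the mutant-labelled libraries. There the WT values lay between the mutant-labelled ones (-0.04, SE 0.20, interval -0.49 to 0.42, edgeR adjusted p = 0.963). Ifit1 and Ifit3 were above WT in both mutant-labelled libraries, at log2 fold changes of 0.52 and 0.38. Reads of near-identical copies may be split between them, so the counts of Ifit3 and Ifit3b were also summed. How alike their transcripts are was not measured, and the promoter stretches do not show it. The sums were 1754 and 1969 counts in WT and 2272 and 2267 in the mutant-labelled libraries (log2 fold change 0.31, SE 0.20, edgeR adjusted p = 0.559). Most of these counts were from Ifit3, with 1423 and 1640 in WT against 332 and 328 for Ifit3b. The sign of the sum is therefore largely that of Ifit3 and says little about Ifit3b alone.

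The OAS family includes enzymes that double-stranded RNA activates to make short oligoadenylates, a signal to RNase L. Of the 6 members, 3 were above WT in both mutant-labelled libraries. Oas1a and Oasl2 shared the largest log2 fold change of 0.56. Oas1a was at 264 and 218 CPM in WT and at 338 and 373 CPM in the mutant-labelled libraries (SE 0.20, interval 0.11 to 1.02, edgeR adjusted p = 0.305). Oasl2, an OAS-like gene, was at 213 and 211 CPM in WT against 351 and 277 CPM (SE 0.20, edgeR adjusted p = 0.307). Neither gene overlapped between groups. Oas2 was at 90.7 and 118 CPM in WT and at 98.4 and 73.8 CPM in the mutant-labelled libraries, with the lowest value in mutant-labelled replicate 2 and overlapping groups (log2 fold change -0.28, SE 0.22, interval -0.77 to 0.21, edgeR adjusted p = 0.643). Oas3, whose promoter stretch is printed above, was at 280 CPM in mutant-labelled replicate 1 and within 153 to 163 CPM in the other 3 libraries. The log2 fold changes of Oas1g, Oas3 and Oasl1 were 0.41, 0.46 and 0.25. With Oas1a and Oas1g summed the value was 0.53 (edgeR adjusted p = 0.355), and with Oasl1 and Oasl2 summed 0.44 (edgeR adjusted p = 0.436).

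Isg15 is a ubiquitin-like protein that is attached to other proteins, in the mouse by the ligase Herc6, and removed by the protease Usp18, which also damps signaling at Ifnar2. All 3 were above WT in both mutant-labelled libraries on CPM. On FPKM Isg15 overlapped, at 121.67 and 137.39 in WT and 183.68 and 136.46 in the mutant-labelled libraries. Herc6 was at 61.4 and 53.1 CPM in WT and at 118 and 86.1 CPM in the mutant-labelled libraries (log2 fold change 0.83, SE 0.21, interval 0.35 to 1.31, edgeR adjusted p = 0.173). Isg15 itself had the lowest log2 fold change of the group, at 87.0 and 94.2 CPM in WT and at 141 and 107 CPM in the mutant-labelled libraries (0.45, SE 0.20, edgeR adjusted p = 0.408). Usp18 had the smallest absolute log2 ratio between the mutant-labelled libraries of all members (0.01), which stood at 149 and 148 CPM over 76.1 and 96.1 CPM in WT. Its log2 fold change was 0.79 (SE 0.19, interval 0.36 to 1.22, edgeR adjusted p = 0.155).

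The direct effectors were divided, with 3 of 8 members above WT in both mutant-labelled libraries, 1 below and 4 overlapping. Ifitm3 had the highest log2 fold change of these, with 794 and 642 CPM in WT and 1410 and 1190 CPM in the mutant-labelled libraries, which did not overlap (log2 fold change 0.85, SE 0.22, interval 0.35 to 1.36, edgeR adjusted p = 0.187). Mx2, a dynamin-like GTPase gene, was the only member with both mutant-labelled values below WT, at 18.6 and 16.3 CPM in WT and 15.8 and 8.63 CPM in the mutant-labelled libraries. The low value was that of mutant-labelled replicate 2 (log2 fold change -0.52, SE 0.33, interval -1.27 to 0.24, edgeR adjusted p = 0.565). Its neighbour Mx1, which in C57BL/6 mice encodes no working protein, was at 96.1 and 112 CPM in WT, and its mutant-labelled values of 146 and 68.4 CPM lay on either side of these (log2 fold change 0.05, interval -0.65 to 0.74, with the sign turned to -0.10 on library totals without TMM). Rsad2 (viperin, which makes a chain-terminating nucleotide) was at 209 and 284 CPM in WT against 286 and 185 CPM, and its log2 fold change was -0.07. Cmpk2, the mitochondrial nucleotide kinase gene next to Rsad2, was above WT in both mutant-labelled libraries, from 96.7 and 115 CPM in WT to 137 and 128 CPM (log2 fold change 0.32). Samd9l, a restriction factor for poxviruses, had a log2 fold change of 0.62 without overlap. Isg20, an exonuclease, overlapped at 0.18, and the tether Bst2 overlapped at 0.11, a value that became -0.04 on library totals without TMM.

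The nucleic acid sensors held the largest fitted differences of the list, and 5 of 7 were above WT in both mutant-labelled libraries. Ifi205, a DNA-binding PYHIN protein gene at chr1:174011998-174031755, was at 64.6 and 44.6 CPM in WT and at 118 and 105 CPM in the mutant-labelled libraries, with no overlap. Its log2 fold change was 1.03 (SE 0.22, interval 0.54 to 1.52), and its edgeR adjusted p of 0.107 was the lowest of the 42. Zbp1, at chr2:173206612-173218959, senses nucleic acids in the Z form and can start necroptosis. It was at 173 and 117 CPM in WT and at 371 and 213 CPM in the mutant-labelled libraries, and replicate 1 stood far above replicate 2 (log2 fold change 1.01, SE 0.29, interval 0.35 to 1.67, edgeR adjusted p = 0.214). Eif2ak2, the kinase PKR that halts translation on double-stranded RNA, had the lowest log2 fold change of the group, with 58.2 and 75.2 CPM in WT and 63.9 and 59.6 CPM in the mutant-labelled libraries. The groups overlapped (-0.11, SE 0.20, interval -0.56 to 0.34, edgeR adjusted p = 0.861). Dhx58 (LGP2) and Ifih1 (MDA5), which act together on viral RNA in the cytosol, had log2 fold changes of 0.68 and 0.28 without overlap. Ifi204, a neighbour of Ifi205, was at 0.56 without overlap, while Ifi203 overlapped at 0.11, a value that became -0.04 on library totals without TMM. The PYHIN genes form a cluster of related copies between which reads may be split, and the sum of Ifi203, Ifi204 and Ifi205 gave 0.53 (SE 0.23, edgeR adjusted p = 0.398).

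Parp9 and Dtx3l form a complex that joins ADP-ribosylation to ubiquitin transfer, and Parp14 is a further ADP-ribosyltransferase. All 3 lie within chr16:35831892-35972621, where the annotated intervals of Parp9 and Dtx3l overlap at their ends. None of the 3 parted the groups. The absolute log2 ratio between WT replicates was 0.04 for Parp14, 0.02 for Dtx3l and 0.39 for Parp9, and that between mutant-labelled replicates 0.76, 0.96 and 0.89. Dtx3l was at 123 and 122 CPM in WT and at 221 and 113 CPM in the mutant-labelled libraries. Parp9, the highest of the 3 by fold, was at 101 and 77.1 CPM in WT against 168 and 90.4 CPM (log2 fold change 0.53, SE 0.28, interval -0.11 to 1.17, edgeR adjusted p = 0.476). Parp14 was at 127 and 123 CPM in WT against 188 and 111 CPM (log2 fold change 0.25, SE 0.25, interval -0.31 to 0.81, edgeR adjusted p = 0.727). In each of the 3, mutant-labelled replicate 1 alone exceeded both WT libraries.

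Among genes of nuclear bodies and transcription, mutant-labelled replicate 1 was the highest library for all 5, and replicate 2 was above both WT libraries for Phf11d and Sp100 (2 of the 5). Phf11d, which encodes a PHD finger protein, was at 99.3 and 106 CPM in WT and at 159 and 114 CPM in the mutant-labelled libraries (log2 fold change 0.41, SE 0.21, interval -0.06 to 0.88, edgeR adjusted p = 0.46). Pml, the organizer of nuclear bodies, was at 68.3 and 70.0 CPM in WT and at 97.3 and 62.1 CPM in the mutant-labelled libraries (log2 fold change 0.20, SE 0.23, interval -0.32 to 0.73, edgeR adjusted p = 0.769). Sp100, the partner of Pml in these bodies, did not overlap between groups at a log2 fold change of 0.29. Helz2 and Trim30a overlapped, at 0.31 and 0.24.

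Among the other members, Rtp4, which encodes a transporter protein induced by interferon, was at 212 and 219 CPM in WT and at 364 and 317 CPM in the mutant-labelled libraries. The replicates of each group were close and the groups did not overlap (log2 fold change 0.66, SE 0.19, interval 0.23 to 1.10, edgeR adjusted p = 0.219). Ifi27l2a was at 651 and 634 CPM in WT, between mutant-labelled values of 544 and 718 CPM (log2 fold change -0.03, SE 0.22, interval -0.52 to 0.47, edgeR adjusted p = 0.973). Ifi35 and the apoptosis factor Xaf1 did not overlap, at 0.62 and 0.58. Ifi44 had the largest absolute log2 ratio between the mutant-labelled replicates of all members (1.12), at 101 and 46.2 CPM over 58.4 and 51.5 CPM in WT. Lgals3bp, a secreted galectin-binding glycoprotein, was at 950 and 812 CPM in WT, with 1100 and 944 CPM in the mutant-labelled libraries (log2 fold change 0.21).

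The members therefore fell into patterns set by the separate mutant-labelled libraries. Mutant-labelled replicate 1 was the highest of the 4 libraries for 33 of the 42 members, against 25.5% of all genes tested. Replicate 2 was highest for 6 members, and for 3124 of the 11302 genes tested. Replicate 1 alone exceeded both WT libraries for 14 members (15.4% of all genes), namely Oas3, Oasl1, Mx1, Rsad2, Bst2, Ifi203, Parp9, Parp14, Dtx3l, Pml, Helz2, Trim30a, Ifi44 and Lgals3bp. Replicate 2 alone did so for 3 members (16.3%), Ifit3b, Isg20 and Ifi27l2a, and neither did for Oas2, Mx2 and Eif2ak2 (3 members, 46.8%). Replicate 2 was the lowest library for 9 members, against 28.8% of all genes. The median distance of the members from their WT mean was 0.57 on the log2 scale in replicate 1 and 0.18 in replicate 2, while the median over all genes was -0.01 in both. The median absolute log2 ratio between replicates was 0.21 in WT and 0.40 in the mutant-labelled group for the members, and 0.23 and 0.30 for all genes.

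**Figure D4:**
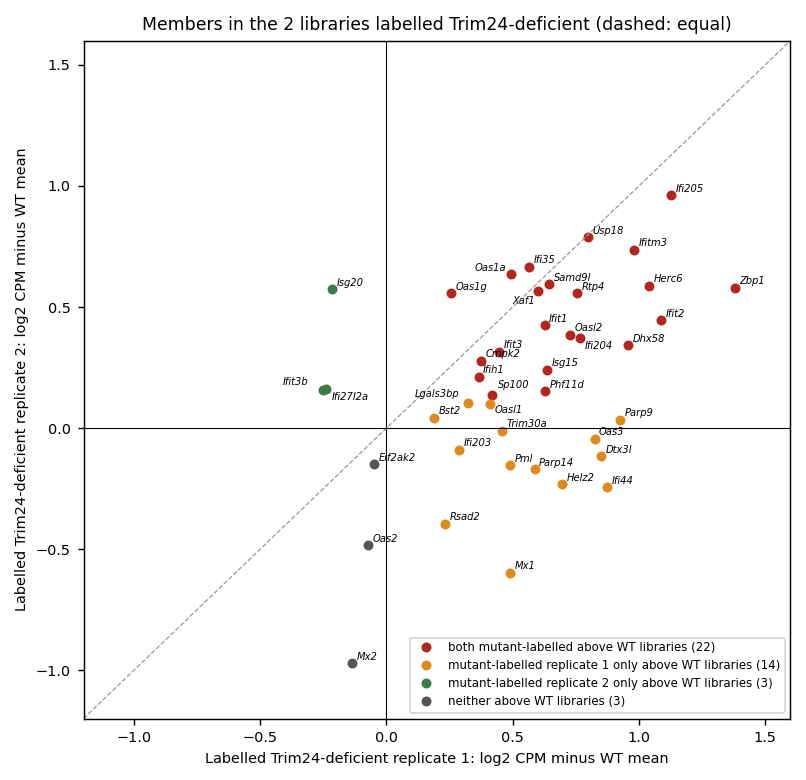
Each point is a member, placed by its log2 CPM minus the WT mean in mutant-labelled replicate 1 (x axis) and replicate 2 (y axis), with the dashed line where both are equal and colors for the patterns named in the key. Most points lie below the dashed line, the 22 red points are above both WT libraries in both replicates, and the 14 orange ones only in replicate 1.

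Of the members, 20 lie in 7 clusters with another member within 500000 bases. In the Ifit cluster (chr19:34550550-34650009), Ifit1, Ifit2 and Ifit3 were above WT in both mutant-labelled libraries and Ifit3b, which lies between Ifit3 and Ifit1, was not. The Oas cluster on chromosome 5 (chr5:120730333-120907544) held Oas1a and Oas1g without overlap and Oas2 and Oas3 with overlap. Rsad2 and Cmpk2 (chr12:26442743-26479837) and Oasl2 and Oasl1 (chr5:114896926-114937911) were likewise split, with only Cmpk2 and Oasl2 free of overlap on CPM. On FPKM, Oas1g and Cmpk2 overlapped as well. In the PYHIN cluster (chr1:173747293-174031755) Ifi204 and Ifi205 did not overlap between groups and Ifi203 did. The Mx genes (chr16:97447035-97560901) differed in that Mx2 was below WT in both mutant-labelled libraries and Mx1 overlapped.

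Upstream in the pathway, of 10 interferon genes listed only Ifnb1 and Ifng had a value, the other 8 being absent from all 4 tables, which list genes above 0. Ifnb1 was at 4.64 and 1.67 CPM in WT and at 1.28 and 2.26 CPM in the mutant-labelled libraries (log2 fold change -0.83, SE 0.67, edgeR adjusted p = 0.652). Ifng, the interferon of T and NK cells, was at 7.88 and 3.96 CPM in WT and at 39.8 and 7.40 CPM in the mutant-labelled libraries, so mutant-labelled replicate 1 stood apart from the other 3 libraries (log2 fold change 1.99, SE 0.67, edgeR adjusted p = 0.273). The 6 receptor and kinase genes had a median log2 fold change of 0.09, from -0.11 for Ifnar2 to 0.42 for Ifngr1, with 0 called by edgeR, limma or DESeq2 and 0 at an unadjusted p below 0.05. All 7 genes examined of ISGF3 and the interferon regulatory factors were above 0, as were 49.4% of all genes. Of the 7, 6 were higher without overlap (21.4% of all genes) and 0 were called by edgeR or limma. At an unadjusted edgeR p below 0.05 there were 5 (6.58% of all genes higher). DESeq2 called 1 of them higher (0.839% of its genes), Irf7, which is named for that reason after its values were seen. Their median was 0.56, from 0.31 for Irf3 (45.2 and 50.6 CPM in WT, 52 and 66.8 CPM in the mutant-labelled libraries) to 1.13 for Irf1 (214 and 116 CPM in WT, 510 and 212 CPM in the mutant-labelled libraries).

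The 3 feedback inhibitors had log2 fold changes above 0, with Socs1, which blocks the Jak kinases, at 33.5 and 14.8 CPM in WT and 88.6 and 38.0 CPM in the mutant-labelled libraries (log2 fold change 1.39, SE 0.44, edgeR adjusted p = 0.239). Of the 3, 0 were called by edgeR, limma or DESeq2, and 2 were at an unadjusted edgeR p below 0.05 (6.58% of all genes higher). Of 13 sensors and adaptors that lead to interferon production, 10 were above 0 (49.4% of all genes). Of these 13, 1, Tlr7, was called lower by edgeR (0.0796% of all genes), as it was by limma and DESeq2. Tlr7, the endosomal receptor of single-stranded RNA on chromosome X, fell from 208 and 219 CPM in WT to 77.5 and 86.3 CPM in the mutant-labelled libraries (log2 fold change -1.38, SE 0.19, edgeR adjusted p = 0.0165). Ikbke, a kinase that activates interferon regulatory factors, was at 94.7 and 76.9 CPM in WT and at 218 and 160 CPM in the mutant-labelled libraries (log2 fold change 1.14, SE 0.22, edgeR adjusted p = 0.0774), and was called by DESeq2. Among 15 genes induced by interferon-γ, 14 were tested and all 14 were above 0 (49.4% of all genes). Of the 14, 12 were higher without overlap (21.4% of all genes) and 0 were called by edgeR or limma. At an unadjusted edgeR p below 0.05 there were 12 (6.58% of all genes higher), while DESeq2 called 8 higher (0.839% of its genes). Their median was 1.30, from 0.30 for Cxcl10 to 2.77 for Gbp2b, and mutant-labelled replicate 1 was the highest library for 13 of the 14. Their summed level was 2270 and 1260 CPM in WT and 5430 and 2760 CPM in the mutant-labelled libraries, and like the 42 members it was highest in mutant-labelled replicate 1.

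**Figure D5:**
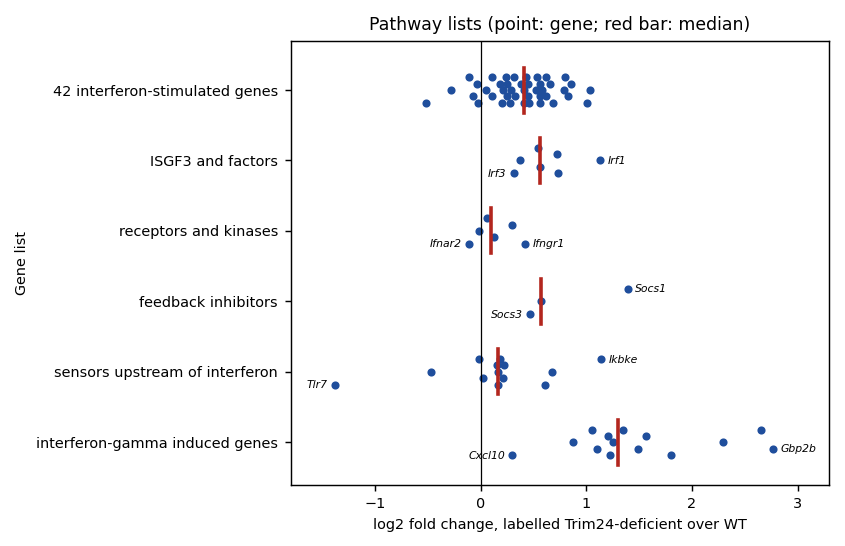
Fitted log2 fold change, mutant-labelled over WT (x axis), of every tested gene (point) in the 42 members and 5 other lists of the pathway (y axis), with the median as a red bar and the lowest and highest gene of each other list named. The medians are 0.41 for the members, 0.56 for ISGF3 and factors, 0.09 for receptors and kinases, 0.57 for feedback inhibitors, 0.16 for sensors and 1.30 for interferon-γ induced genes.

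Markers of other cells were read beside these values. Monocyte markers summed to 502 and 623 CPM in WT and to 1540 and 979 CPM in the mutant-labelled libraries. Of the 4, 3 (Ly6c2, Ccr2 and Plac8) were higher without overlap (21.4% of all genes), and 0 were called by edgeR. At an unadjusted edgeR p below 0.05 there were 3 (6.58% of all genes higher). DESeq2 called 2 genes higher, Ly6c2 and Plac8 (0.839% of its genes). Like the members, the monocyte sum was highest in mutant-labelled replicate 1. Macrophage markers summed to 20200 and 20500 CPM in WT and to 18800 and 25300 CPM, with 5 of 9 above WT in both mutant-labelled libraries (21.4% of all genes). T cell markers, of which 5 of 6 had a value, summed to between 46.0 and 55.5 CPM in WT and to 112 and 35.5 CPM, and NK cell markers to 79.8 and 27.5 CPM in WT and to 174 and 24.9 CPM, so that both were highest in mutant-labelled replicate 1, as Ifng was. Plasmacytoid dendritic cell markers, from the main makers of interferon-α, summed to 65.0 and 90.4 CPM in WT and to 44.9 and 54.5 CPM, mostly from Tcf4, while Klk1 was at 0 in WT replicate 1 and mutant-labelled replicate 2. Conventional dendritic cell markers summed to between 44.2 and 48.1 CPM in WT and to 78.4 and 36.4 CPM. Flt3 and Cd209a (2 of the 6) were below WT without overlap, beside 23.0% of all genes. Xcr1, Clec9a and Ccr7 went the other way with overlap, at log2 fold changes of 0.62, 1.71 and 0.48. Neutrophil markers summed to 176 and 206 CPM in WT and to 271 and 409 CPM, highest in mutant-labelled replicate 2, with Ly6g at 0 in both WT libraries. DESeq2 called 2 of these genes higher (S100a9 and Csf3r, beside 0.839% of its genes), while Cxcr2 overlapped at a log2 fold change of -0.30. Melanoma markers, from tumor cells, summed to between 740 and 783 CPM in WT and to 585 and 789 CPM. B cell and fibroblast markers summed to at most 4.52 CPM in any library, with Pdgfra at 0 in 3 of the 4 libraries, and endothelial markers to between 17.7 and 42 CPM. The part of these cells in the members' values was not tested.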

How the data were processed

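The authors isolated RNA with a column kit, had it sequenced, mapped reads to GRCm38/mm10 with Bowtie and quantified genes with RSEM (versions are not given in the sources used here). For every gene the authors deposited RSEM's expected count, which carries no normalization. The deposited FPKM divides it by gene length and library total. Per the file headers a transcript length is given as well, and it entered only the length-trend alternative. Genes absent from a table were read as 0. A further gene of the list of ISGF3 and factors is not reported here. The members and the gene lists were chosen with earlier results of these data known.

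After rounding to whole numbers, the counts were passed to edgeR 4.0.16 (R 4.3.3), which kept 11302 genes by filterByExpr, scaled libraries by TMM (factors 0.943 to 1.076) and tested the genotype label in all 4 libraries with its quasi-likelihood test and no block. Adjusted p-values (Benjamini-Hochberg) are over all genes tested. Standard errors and 95% intervals come from the same fit. A gene counted as above or below without overlap when both mutant-labelled CPM lay beyond both WT CPM. Positions and promoter windows are RefSeq's (GRCm38.p6). The scripts were tested on simulated data.

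The labels number 2 replicates per group but do not say that they are separate animals, so p-values measure the spread between these samples. Replicates differed by more than counting noise (chi-square per degree of freedom 8.58 in WT and 19.2 in the mutant-labelled group). With 2 against 2 an exact two-sided permutation test cannot go below p = 0.333, so all calls rest on the spread edgeR shares between genes. Floors cover counting error only. In each role group the members with the highest and the lowest log2 fold change got values per library, others were given where a comparison used them, and at most 2 genes of each other list were named besides genes called by edgeR. Usp18, Dtx3l, Oas3, Mx1, Rsad2, Cmpk2, Ifi44 and Lgals3bp were added to these, as were list genes named for a DESeq2 call, after their values were seen.

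The fit was repeated with the replicate number as a block, with library totals or upper quartiles in place of TMM, without the filter, with a minimum of 10 counts in each library, with the gene length trend removed, without the fold threshold, with counts of related copies summed, and with each library left out in turn. DESeq2 1.42.0 was run on the same counts, and limma 3.58.1 on FPKM after adding 1 or 0.1 and taking log2, for all genes or only those that reached FPKM 1 in 2 or more libraries.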

Additional observations from a re-analysis of the deposited data

How the results depend on the processing

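The count of members called lower was 0 under every alternative run, the members' median log2 fold change stayed above 0 (0.22 to 0.44 apart from fits that left out a library), and the number of members above 0 was 33 to 36 in these same fits. The comparison of this last number across settings, and that of non-overlapping members across scales, were chosen after seeing the data. The count of genes called, 42 in the fit reported, was 163 with DESeq2, 23 and 20 with limma on log2(FPKM + 1) and log2(FPKM + 0.1), and 0 with limma on all genes (1636 of them at an unadjusted p below 0.05). It was 25 to 652 when 1 library was left out. Members called higher, 0 in the fit reported (16 at an unadjusted p below 0.05), were 3 with DESeq2 and 0 to 14 with a library left out, the 14 without mutant-labelled replicate 2 and 2 without mutant-labelled replicate 1. Genes called were 405 and 652 in the fits without mutant-labelled replicates 1 and 2 and 66 and 25 in those without WT replicates 1 and 2. The median of the members was 0.19 to 0.58 over these fits, lowest without mutant-labelled replicate 1, where 29 members were above 0, and highest without mutant-labelled replicate 2. In such fits the lone library of a group is assumed to vary like the pair of the other group. With limma on log2(FPKM + 1) the median of all genes moved to -0.13, and the members' median of 0.22 was 0.36 above it.

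The replicate number as a block gave 634 genes called, 8 members called higher (Ifi205, Zbp1, Ifitm3, Herc6, Usp18, Ifit2, Rtp4 and Dhx58, beside 3.76% of all genes) and a members' median of 0.38. Deviations of same-numbered libraries from their group means correlated at 0.165 across genes. With 2 pairs, and no label that ties a number to a litter or day, the libraries share only a number.

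Of 597 values of single members under the alternatives, 536 kept their sign and side of the threshold, 27 passed the threshold newly and 34 changed sign. No value could lose a call, since the fit reported called no member. Of the members, 27 never changed sign. Mx1 was at -0.04 with the replicate block, -0.10 on library totals, -0.01 with upper-quartile scaling and -0.20, -0.21 and -0.20 in the limma fits (pseudocounts 1 and 0.1, and all genes). Bst2 was at -0.04 on library totals and -0.03 in each limma fit, and Ifi203 at -0.04 and at -0.03, -0.04 and -0.03. Ifit3b was at 0.31 when summed with Ifit3, which gave most of the summed counts. With 1 library left out, values ran from -0.25 to 0.16 for Ifit3b, -0.04 to 0.83 for Oas3, -0.60 to 0.50 for Mx1, -0.41 to 0.22 for Rsad2, -0.27 to 0.66 for Isg20, -0.04 to 0.29 for Bst2, -0.27 to 0.09 for Eif2ak2, -0.08 to 0.28 for Ifi203, -0.17 to 0.59 for Parp14, -0.11 to 0.85 for Dtx3l, -0.15 to 0.50 for Pml, -0.23 to 0.70 for Helz2, -0.01 to 0.46 for Trim30a, -0.24 to 0.89 for Ifi44 and -0.24 to 0.17 for Ifi27l2a. Apart from the changes made by the construction of a setting (fewer libraries, summed copies), the cause was not tested. The lowest value of any member was 8.63 CPM (Mx2), where 3 counts came to at most 0.639 CPM.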
